A study of Arabidopsis thaliana with 24 samples.

Results

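RCA, PSAE1, LHCB4.1 and ATPC1 are nuclear genes for the photosynthetic apparatus of Arabidopsis thaliana, and their transcripts were described here in roots and rosettes. Each gene was found by its locus (AT2G39730, AT4G28750, AT5G01530 and AT4G04640) as the only gene that the platform annotation gives a feature. Each had exactly 1 feature, so the 4 genes are 4 of 28583 features and 4 of the 16746 features with 1 gene.

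The 24 arrays fall into 8 groups of 3, which the series' design text calls biological replicates. The groups were roots and rosettes of the mutant rpt2-3a at deficient and at normal sulfur supply, and roots and rosettes of the accession Col-0 at deficient and at normal supply. All plants were in hydroponic culture in short days of 8 h light and 16 h dark, on full nutrients for 5 weeks, and the deficient groups then spent 5 days on medium deficient in it. The mutant is named for RPT2, which belongs to the ATPase ring of the proteasome, and whether plants were pooled within an array is not given in the sources used here. Values are deposited expression values, read as log2, and a change is a difference of such values. Array medians lay between 4.47 and 4.55 in roots and between 4.03 and 4.14 in rosettes. FAMA, a guard cell factor and the 1 measured leaf marker of 6 listed, averaged 2.14 in roots and 5.64 in rosettes. The root hair expansins EXPA7 and EXPA18, the 2 measured root markers of 20 listed, averaged 7.67 and 6.45 in roots, against 2.18 and 2.26 in rosettes.

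Photosynthetic complexes are built from proteins of both the nuclear and the plastid genome, and nuclear-encoded subunits are imported into the chloroplast. RCA is Rubisco activase, which frees Rubisco, the carbon-fixing enzyme, of inhibitory sugar phosphates. PSAE1 is a stromal-side subunit of photosystem I, LHCB4.1 is a minor antenna protein (CP29) of photosystem II, and ATPC1 is the gamma subunit of the chloroplast ATP synthase. Leaves hold green chloroplasts, whereas most root plastids are not green.

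All 4 genes were lower in roots than in rosettes, in both genotypes and at both supplies. In Col-0 at normal supply RCA was at 3.76, 3.61 and 4.16 in roots, against 11.12, 10.95 and 10.96 in rosettes. The difference was -7.17 ± 0.15 (SE), or 144-fold (limma, adjusted p = 2.74e-21). Root and rosette arrays did not overlap for any of the 4 genes.

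PSAE1 was at 2.62, 2.64 and 2.78 in roots, against 11.38, 11.34 and 11.35 in rosettes, a difference of -8.68 ± 0.39 (409-fold, adjusted p = 2.94e-15 by limma). LHCB4.1 was at 4.81, 4.89 and 5.36 in roots, against 9.73, 9.64 and 9.53 in rosettes, a difference of -4.61 ± 0.17 (24.5-fold, limma adjusted p = 3.73e-17). ATPC1 stood at 2.63, 2.21 and 2.53 in roots, against 8.62, 8.45 and 8.52 in rosettes, a difference of -6.07 ± 0.12 (67.3-fold, limma adjusted p = 1.78e-21). Where a root value lies at background, its fold is a lower bound. Whether the dim root values lie above background was not tested, since no detection calls were used, so the 4 folds are not ranked. Fewer cells of a green type and less transcript per cell cannot be told apart in whole organs.

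Most features differ between the organs, so these calls stand in a wide field. All 4 genes passed as lower in roots of deficient rpt2-3a, where 61.7% of features passed in either direction, and in rpt2-3a at normal supply, where 62.5% passed. The 4 passed likewise in deficient Col-0, with 63.7% of features, and in Col-0 at normal supply, with 63.4%. The median of the 4 differences was -6.94 in deficient rpt2-3a and -6.46 in rpt2-3a at normal supply, against 0.19 and 0.20 over all features. In Col-0 it was -6.56 at deficient and -6.62 at normal supply, against 0.22 and 0.21 over all features. Centring all arrays on 1 median moved the difference of RCA in Col-0 at normal supply to -7.54, and those of the other 3 genes also moved further below 0.

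**Figure D1:**
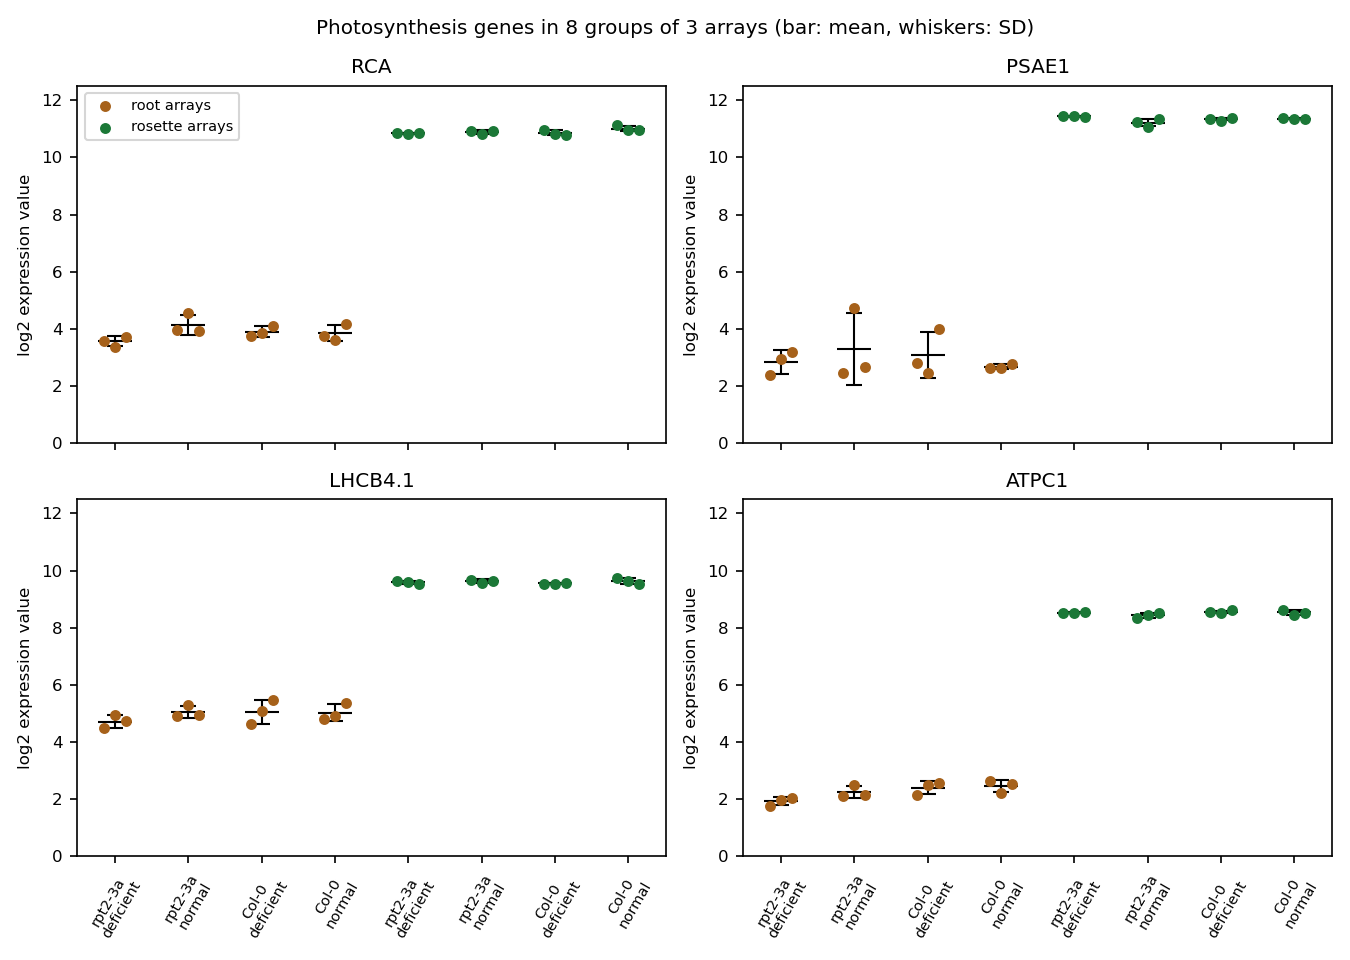
Log2 expression value of each gene (vertical axis) in each array of 8 groups (horizontal axis), with root groups in brown left of rosette groups in green; points are arrays, bars group means and whiskers SD (n = 3). All root arrays lie below all rosette arrays, and PSAE1 in roots has single arrays at 4.74 and 4.01 above the others.

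Within an array the rosette values stood near the top. RCA, PSAE1, LHCB4.1 and ATPC1 each lay between the 95.5th and the 99.5th percentile of the features of a rosette array. In roots RCA lay between the 35.7th and the 50.2nd percentile, LHCB4.1 between the 49.7th and the 62.3rd and PSAE1 between the 19.1st and the 52.5th. ATPC1 lay between the 4.2nd and the 25.9th. Probes differ in how brightly they bind, so these places do not order the genes by transcript level.

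The spread between arrays of a group was wider in roots than in rosettes for each gene, as a description. The within-group SD was 0.78 for PSAE1 in roots, above that of 99.9% of features, and 0.070 in rosettes. It was 0.26 in roots and 0.072 in rosettes for RCA, 0.30 and 0.062 for LHCB4.1, and 0.20 and 0.064 for ATPC1. Over all features the median SD was 0.16 in roots and 0.17 in rosettes. Among the 1000 features nearest in mean, the SD in roots stood at the 99.7th percentile for PSAE1, the 93.8th for LHCB4.1, the 78.7th for RCA and the 55.6th for ATPC1, and in rosettes between the 12.3rd and the 30.8th for the 4. By group, the SD of PSAE1 in roots was 1.26 in rpt2-3a and 0.09 in Col-0 at normal supply, and 0.42 in rpt2-3a and 0.81 in Col-0 under deficiency. A change of PSAE1 in roots had an SE of 0.50, against 0.09 in rosettes, and its SE in roots was 0.21 without the arrays at 4.74 and 4.01, a choice made after seeing the values.

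The other genes of the pathway mostly followed the same order of organs. Of 119 listed loci of the photosystems, antennae, electron transport, ATP synthase, Calvin cycle, chlorophyll synthesis, photorespiration and regulation, 17 had a feature of their own. In each of the 4 root against rosette comparisons 16 were lower in roots and 1 was higher (limma, adjusted over all features). In these comparisons 61.7% to 63.7% of all features passed in either direction, and 35.6% to 36.9% lay below 0. In Col-0 at normal supply SBPASE, a Calvin cycle phosphatase, differed by -7.84 ± 0.13, HPR1, the peroxisomal hydroxypyruvate reductase, by -7.09 ± 0.10 and PORB, a protochlorophyllide oxidoreductase, by -7.51 ± 0.30. PSBW of photosystem II stood at -7.15 ± 0.21 and PSAN of photosystem I at -6.64 ± 0.13.

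The size of the difference varied widely among the other pathway genes. PGK2, a phosphoglycerate kinase, differed by -1.05 ± 0.11, CHLM, a methyltransferase of chlorophyll synthesis, by -1.99 ± 0.14 and GLDT, of the glycine decarboxylase complex, by -3.07 ± 0.13. The antenna genes LHCB4.2 and LHCB4.3, paralogs of LHCB4.1, differed by -4.37 ± 0.14 and -1.94 ± 0.12, and LHCB1.5 by -6.58 ± 0.19. The gene that was higher in roots was GLYK, glycerate kinase of photorespiration, at 1.64 ± 0.10. PRK (-7.01), PLGG1 (-6.76), PSB27 (-5.74), PETM (-5.56) and PSBY (-4.62) complete the list.

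**Figure D2:**
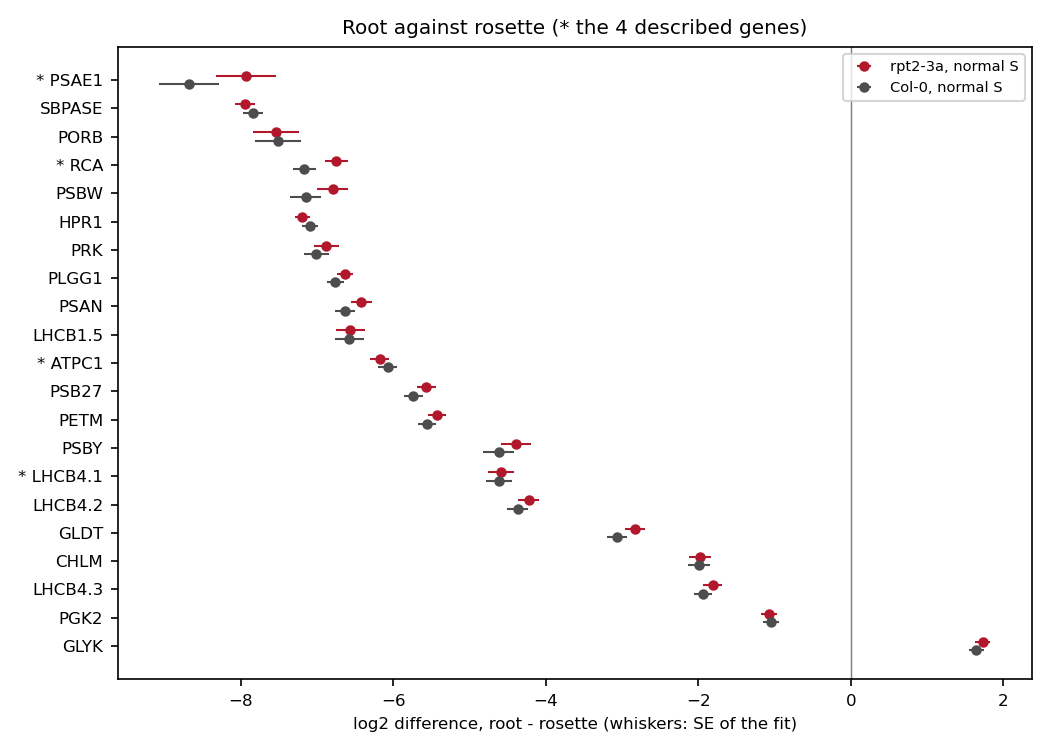
Log2 difference of roots minus rosettes (horizontal axis) for the 4 genes, marked with an asterisk, and 17 other pathway genes (vertical axis) at normal supply; points are estimates in rpt2-3a (red) and Col-0 (grey), whiskers the SE of the fit. Only GLYK, at 1.64 in Col-0, lies above 0.

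In rpt2-3a roots all 4 values were lower under sulfur deficiency, and none of the 4 passed the test. RCA was at 3.59, 3.37 and 3.73 in deficient roots, against 3.95, 4.55 and 3.91 at normal supply. The arrays of the groups did not overlap, and the change was -0.57 ± 0.19 (95% interval -0.97 to -0.17, limma adjusted p = 0.325). The share of all features whose groups do not overlap was not counted, here or in the later comparisons. The highest array was replicate 2 at normal supply. Without it the change of RCA was -0.37.

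PSAE1 was at 2.37, 2.94 and 3.20 in deficient rpt2-3a roots, against 2.46, 4.74 and 2.66 at normal supply. The groups overlapped, with 1 normal array far above the other 5, and the change was -0.45 ± 0.50 (limma adjusted p = 0.888). Without that array, again replicate 2, the change turned to 0.28. ATPC1 was at 1.77, 1.96 and 2.04 in deficient roots, against 2.12, 2.48 and 2.15 at normal supply, without overlap (-0.33 ± 0.15, limma adjusted p = 0.569). LHCB4.1 was at 4.47, 4.93 and 4.74 in deficient roots, against 4.91, 5.28 and 4.94 at normal supply (-0.33 ± 0.21, limma adjusted p = 0.717), and here 1 deficient array lay inside the range at normal supply. Without replicate 2 at normal supply both stood at -0.21.

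The count of calls was 0 of 4 by limma in a comparison where 0.143% of all features passed, and 2 of the 4, RCA and ATPC1, had an unadjusted p below 0.05, as did 8.74% of all features. The median change of the 4 was -0.39, against -0.01 over all features.

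In Col-0 roots no gene of the 4 passed under the same treatment. RCA was at 3.74, 3.85 and 4.1 in deficient roots, against 3.76, 3.61 and 4.16 at normal supply (0.05 ± 0.19, 95% interval -0.35 to 0.45). LHCB4.1 was at 4.62, 5.08 and 5.46 in deficient roots, against 4.81, 4.89 and 5.36 at normal supply (0.03 ± 0.21). ATPC1 was at 2.13, 2.48 and 2.57 in deficient roots, against 2.63, 2.21 and 2.53 at normal supply (-0.06 ± 0.15). The groups overlapped for each of these 3 genes.

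PSAE1 was at 2.79, 2.47 and 4.01 in deficient Col-0 roots, against 2.62, 2.64 and 2.78 at normal supply. Its change of 0.41 ± 0.50 rested on replicate 3 of the deficient group, without which it was -0.05. None of the 4 passed (limma, lowest adjusted p = 0.875), none had an unadjusted p below 0.05, and 0.875% of features passed.

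Whether the root response differed between the genotypes was tested as a difference of responses, in which 0.0105% of features passed. None of the 4 passed, and RCA had an unadjusted p below 0.05, as did 5.45% of features. The response in rpt2-3a minus that in Col-0 was -0.63 ± 0.26 for RCA (limma adjusted p = 0.875) and -0.86 ± 0.71 for PSAE1 (adjusted p = 0.968). It was -0.36 ± 0.29 for LHCB4.1 and -0.26 ± 0.21 for ATPC1. The median was -0.50 for the 4 genes and -0.01 over all features. Without both arrays of highest PSAE1, replicate 2 of rpt2-3a at normal supply and replicate 3 of deficient Col-0, a choice made after seeing the values, PSAE1 turned to 0.33, RCA stood at -0.32, LHCB4.1 at -0.0417 and ATPC1 at -0.06, and the median of the 4 was -0.05.

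Between genotypes under deficiency, the 4 genes were again lower in rpt2-3a roots without passing. ATPC1 was at 1.77, 1.96 and 2.04 in rpt2-3a, against 2.13, 2.48 and 2.57 in Col-0, with no overlap (-0.47 ± 0.15, 95% interval -0.80 to -0.14, limma adjusted p = 0.222). RCA also had no overlap, at -0.33 ± 0.19 (limma adjusted p = 0.572). LHCB4.1 (-0.34 ± 0.21) and PSAE1 (-0.25 ± 0.50) overlapped, and without replicate 3 of deficient Col-0 PSAE1 turned to 0.21 and LHCB4.1 stood at -0.14. The number of calls was 0 of 4 beside 0.77% of all features, and ATPC1 was the 1 gene with an unadjusted p below 0.05, as 10.8% of features had.

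At normal supply the genotypes overlapped in roots for all 4 genes. The changes in rpt2-3a against Col-0 were 0.29 ± 0.19 for RCA, 0.61 ± 0.50 for PSAE1, 0.02 ± 0.21 for LHCB4.1 and -0.21 ± 0.15 for ATPC1. None passed (limma, lowest adjusted p = 0.712), none had an unadjusted p below 0.05, and 0.577% of features passed. Without replicate 2 of rpt2-3a PSAE1 turned to -0.12 and LHCB4.1 to -0.095, RCA stood at 0.0867 and ATPC1 at -0.32.

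In rosettes the 4 genes were tested in the same 5 comparisons. RCA was at 10.87, 10.83 and 10.85 in deficient rpt2-3a, against 10.92, 10.82 and 10.92 at normal supply (-0.04 ± 0.09). PSAE1 was at 11.44, 11.44 and 11.43 in deficient rpt2-3a, against 11.25, 11.07 and 11.33 at normal supply. These groups did not overlap, and the value of 0.22 ± 0.09 did not pass (95% interval 0.02 to 0.42, limma adjusted p = 0.329).

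ATPC1 was at 8.52, 8.51 and 8.53 in deficient rpt2-3a rosettes, against 8.34, 8.45 and 8.5 at normal supply (0.09 ± 0.09). LHCB4.1 was at 9.62, 9.59 and 9.54 in deficient rpt2-3a rosettes, against 9.68, 9.57 and 9.65 at normal supply (-0.05 ± 0.09). ATPC1 did not overlap between the supplies, and LHCB4.1 did. None of the 4 passed by limma where 1.55% of features passed, and PSAE1 was the 1 gene with an unadjusted p below 0.05, as 13% of features had.

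In Col-0 rosettes RCA was at 10.96, 10.83 and 10.79 under deficiency, against 11.12, 10.95 and 10.96 at normal supply (-0.15 ± 0.09, limma adjusted p = 0.73). PSAE1 was at 11.34, 11.29 and 11.37 under deficiency, against 11.38, 11.34 and 11.35 at normal supply (-0.02 ± 0.09). Both genes overlapped between the supplies. LHCB4.1 was at 9.54, 9.53 and 9.57 under deficiency, against 9.73, 9.64 and 9.53 at normal supply (-0.09 ± 0.09). ATPC1 was at 8.54, 8.5 and 8.6 under deficiency, against 8.62, 8.45 and 8.52 at normal supply (0.02 ± 0.09). These also overlapped, none passed where 0.129% of features did, and none had an unadjusted p below 0.05.

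No gene of the 4 passed between the genotypes in rosettes. The arrays of PSAE1 did not overlap between rpt2-3a and Col-0 at either supply, nor did those of RCA at normal supply. Under deficiency the 4 changes in rpt2-3a against Col-0 ran from -0.03 for ATPC1 to 0.10 for PSAE1, and at normal supply from -0.14 for PSAE1 to 0 for LHCB4.1. Features passed at 0.322% in the first comparison and at 2.01% in the second, and none of the 4 had an unadjusted p below 0.05 in either. For RCA the 95% interval was -0.21 to 0.19 under deficiency and -0.32 to 0.08 at normal supply. The difference of sulfur responses between genotypes was between 0.04 for LHCB4.1 and 0.24 ± 0.13 for PSAE1, and 0% of all features passed, while 2650 of them had an unadjusted p below 0.05.

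Whether the sulfur response differed between organs was also tested. In rpt2-3a the root minus the rosette response was -0.54 ± 0.21 for RCA, -0.67 ± 0.56 for PSAE1, -0.28 ± 0.24 for LHCB4.1 and -0.42 ± 0.18 for ATPC1. None passed (limma, lowest adjusted p = 0.333) beside 0.399% of features, and RCA and ATPC1 had an unadjusted p below 0.05, as did 11% of features. In Col-0 the values were 0.20, 0.43, 0.12 and -0.08 in the same order, none passed beside 0.469% of features, and none had an unadjusted p below 0.05.

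**Figure D3:**
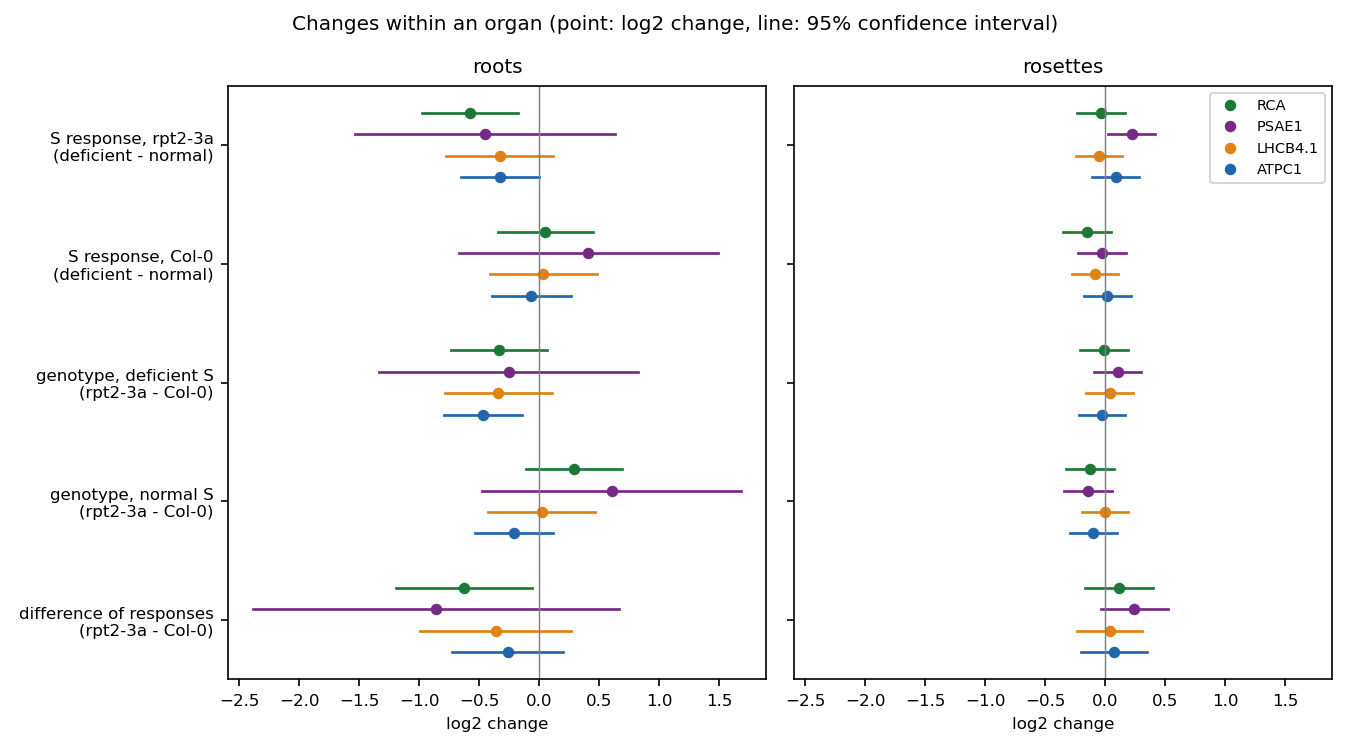
Log2 change (horizontal axis) of each gene in 5 comparisons in roots (left) and rosettes (right); points are estimates and lines 95% confidence intervals. Intervals in roots are widest for PSAE1, and none of the changes passed after adjustment over all features.

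Ordered by mean, the 4 rosette groups of every gene stood above its 4 root groups. In roots the RCA means ran from 3.56 ± 0.18 (SD, n = 3) in deficient rpt2-3a, the lowest, to 4.14 ± 0.36 in rpt2-3a at normal supply, the highest, and neighbouring groups overlapped. The PSAE1 root means ran from 2.68 ± 0.09 in Col-0 at normal supply to 3.29 ± 1.26 in rpt2-3a at normal supply, with all neighbours overlapping. LHCB4.1 had its lowest root mean in deficient rpt2-3a, 4.71 ± 0.23, and the other 3 groups lay between 5.02 and 5.05. ATPC1 was also lowest in deficient rpt2-3a, 1.92 ± 0.14, and highest in Col-0 at normal supply, 2.46 ± 0.22. Its lowest root group did not overlap with the next, rpt2-3a at normal supply. In rosettes 3 neighbouring steps had no overlap. For RCA it was Col-0 at normal supply above rpt2-3a at normal supply. For PSAE1 it was deficient rpt2-3a above Col-0 at normal supply, and for ATPC1 deficient rpt2-3a above rpt2-3a at normal supply. The share of all features with such steps was not counted.

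Array by array, all 4 genes lay above their group means in 2 of the 12 rosette arrays and all below in another 2. In roots all 4 lay above in 4 of the 12 arrays and all below in another 4. Deviations within a group sum to 0, so the counts above and below are linked. Such counts were not made for other sets of 4 genes. In replicate 2 of rpt2-3a at normal supply PSAE1 was 1.45 above its group mean, RCA 0.41, LHCB4.1 0.24 and ATPC1 0.23. In replicate 3 of deficient Col-0 PSAE1 was 0.92 above, LHCB4.1 0.41, RCA 0.20 and ATPC1 0.18. In replicate 3 of Col-0 at normal supply LHCB4.1 was 0.34 above, RCA 0.32, PSAE1 0.10 and ATPC1 0.07. The fourth array was replicate 3 of deficient rpt2-3a, with PSAE1 0.36 above, RCA 0.17, ATPC1 0.12 and LHCB4.1 0.03. The same arrays were set against 306 other features at least 32-fold higher in rosettes, a set drawn after seeing the values. Of these, 70.9% lay above their group mean in replicate 2 of rpt2-3a at normal supply, 68.3% in replicate 3 of deficient Col-0, 52.0% in replicate 3 of Col-0 at normal supply and 59.5% in replicate 3 of deficient rpt2-3a. In the remaining root arrays the share ran from 32.35% to 53.27%. It was 52.0% also in replicate 2 of Col-0 at normal supply, where all 4 genes lay below their group means. The share over all features was not counted. In the 4 root arrays with all 4 genes above, the deviation of FAMA from its group mean was 0.11, -0.13, 0.00 and 0.02 in the same order. FAMA is dim in roots, with a mean of 2.14 above that of 12.4% of features and a within-group SD of 0.12. The deviations of EXPA7 were 0.08, -0.17, -0.12 and 0.10, and those of EXPA18 were 0.21, -0.25, -0.31 and 0.09. The part of shoot material in the result was not tested.

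**Figure D4:**
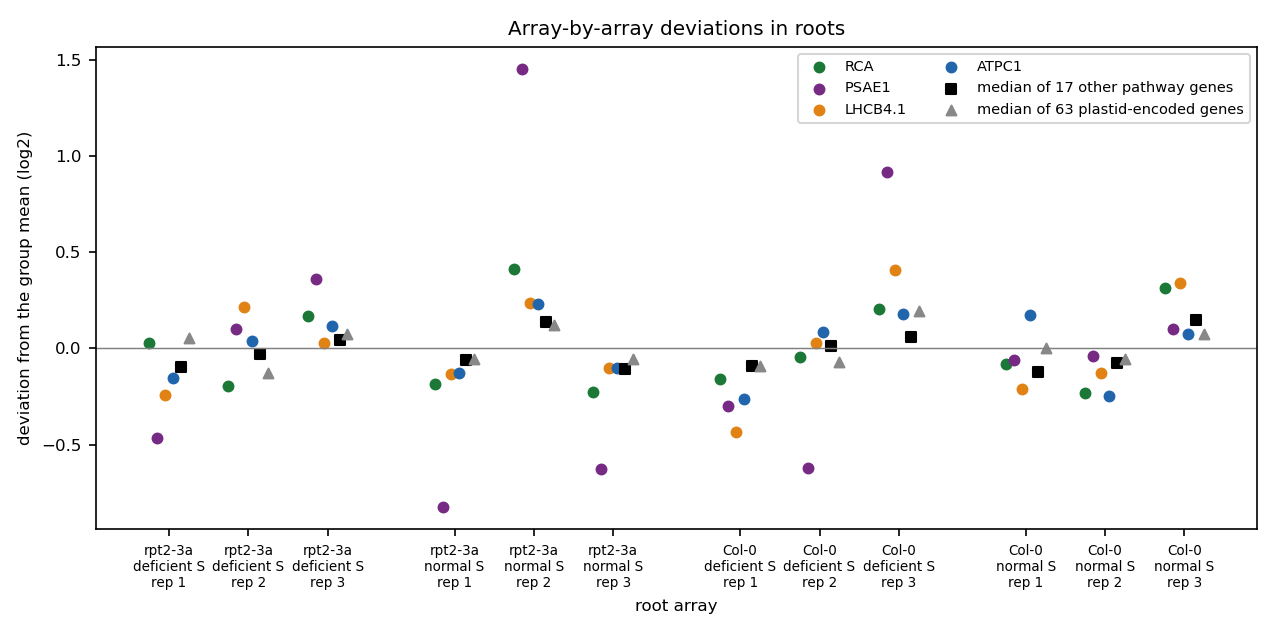
Deviation of each root array from its group mean (vertical axis, log2) for the 4 genes and for the medians of 17 other pathway genes and 63 plastid-encoded genes, by array (horizontal axis). PSAE1 stands out at 1.45 in replicate 2 of rpt2-3a at normal supply and at 0.92 in replicate 3 of deficient Col-0.

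Over the 12 root arrays the pairs of genes correlated positively, though no pair passed. Pearson's r was 0.74 for LHCB4.1 with ATPC1 (rho 0.60; permutation p = 0.0065 and 0.0426) and 0.70 for RCA with LHCB4.1 (rho 0.73; permutation p = 0.0108 and 0.009). After adjustment over 12 pairs, 6 in each organ, r of both had an adjusted permutation p of 0.065. Without the 2 arrays farthest from the median of the first gene, r was 0.55 for LHCB4.1 with ATPC1 and 0.87 for RCA with LHCB4.1. PSAE1 correlated with RCA at 0.68, with LHCB4.1 at 0.59 and with ATPC1 at 0.38. Without the 2 arrays farthest from the median of PSAE1, the last 2 values became 0.08 and -0.09, so that those 2 relations rest on those arrays. Without the 2 arrays farthest from the median of RCA, r of RCA with PSAE1 was 0.45. As deviations from group means, r of PSAE1 was 0.75 with RCA, 0.64 with LHCB4.1 and 0.65 with ATPC1. In rosettes r ran from -0.11 to 0.60, and none passed.

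The features most like each gene over the root arrays were named by Pearson's r, as a description over 12 arrays that share groups. For RCA they were ndhJ (0.94), rpl33 (0.93) and ndhC (0.91), all in the plastid genome. For LHCB4.1 the closest was its paralog LHCB4.2 (0.96), and whether the probes of the pair share sequence was not tested. For PSAE1 they were AT3G56410 (0.95), PSBY (0.93), a photosystem II subunit, and AT5G58510 (0.91). For ATPC1 they were TRM21 (0.91), AT3G07470 (0.89) and AT4G27654 (0.89).

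Since the 3 features most like RCA are plastid-encoded, a set was added after seeing the values and given no test as a set. It holds all 63 plastid-encoded genes with a feature of their own. Their r with RCA over the root arrays had a median of 0.75 and was above 0 for 63 of 63, against a median of -0.01 over all features with 1 gene. The median r was 0.56 with PSAE1, 0.51 with LHCB4.1 and 0.43 with ATPC1. In rosettes the median r was -0.04 with RCA, 0.54 with PSAE1, 0.13 with LHCB4.1 and 0.15 with ATPC1. There r was above 0 for 29, 51, 46 and 45 of the 63 in the same order.

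The values of this set by group are given as a description, since it was drawn for its likeness to RCA over these arrays. The array medians were 9.46, 9.28 and 9.48 in deficient rpt2-3a roots, against 9.53, 9.70 and 9.62 at normal supply. They were 9.49, 9.41 and 9.76 in deficient Col-0 roots, against 9.44, 9.42 and 9.54 at normal supply. The groups did not overlap in rpt2-3a and overlapped in Col-0. Under deficiency 62 of 63 values lay below 0 in rpt2-3a roots, with a median change of -0.28, and 60 lay above 0 in Col-0 roots, with a median of 0.11. Without replicate 3 of deficient Col-0 the Col-0 count was 36 and the median 0.02. In rpt2-3a the count stayed between 61 and 62 when any 1 array was left out. The median there was -0.17 without replicate 2 of the deficient group. Between genotypes at normal supply 62 of the 63 lay higher in rpt2-3a than in Col-0 roots (median 0.21). Under deficiency 61 lay lower in rpt2-3a (median -0.16). The genes move together within an array and are not replicates: all 63 lay above their group means in replicate 3 of deficient Col-0. By limma 0 of the 63 passed in rpt2-3a roots, where 0.143% of all features did. In Col-0 roots 0 of the 63 passed, where 0.875% of all features did.

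**Figure D5:**
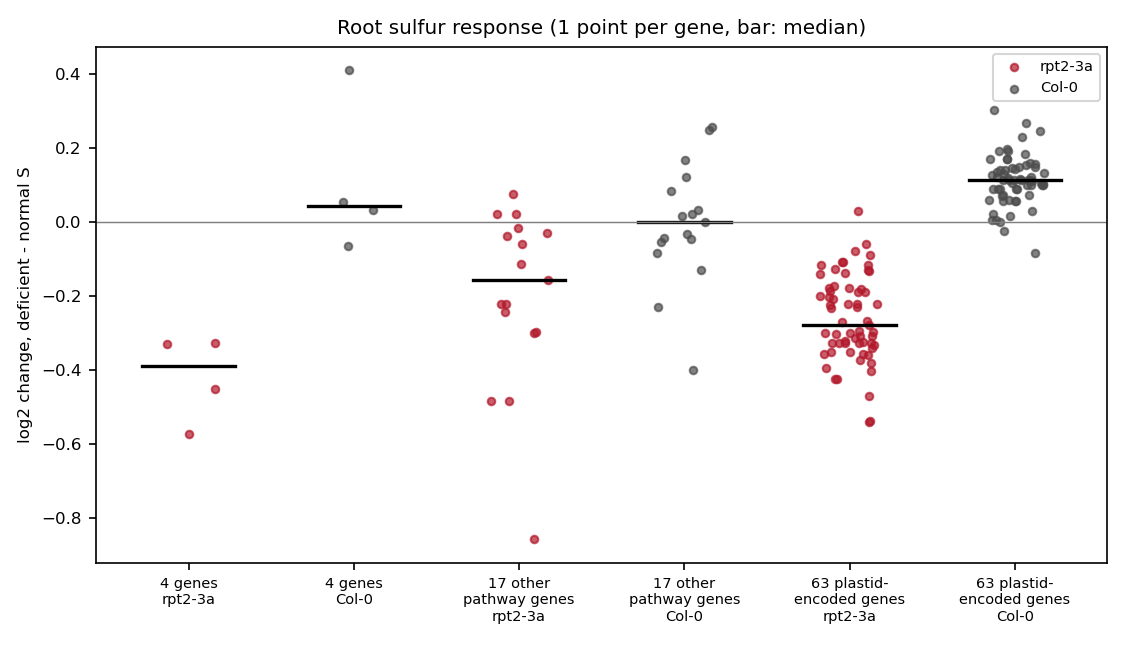
Log2 change in roots, deficient minus normal supply (vertical axis), of the 4 genes, 17 other pathway genes and 63 plastid-encoded genes in rpt2-3a (red) and Col-0 (grey); points are genes and bars medians. The medians in rpt2-3a are -0.39, -0.16 and -0.28, and those in Col-0 are 0.04, 0.00 and 0.11.

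The 17 nuclear pathway genes did not pass in roots either. Under deficiency 14 of 17 lay below 0 in rpt2-3a (median -0.16), against 51.5% of all features, and 8 in Col-0 (median 0), against 48%. The rpt2-3a count was 11 (median -0.13) without replicate 2 at normal supply and 16 (median -0.14) without replicate 3 of the deficient group. None of the 17 passed in either genotype by limma, beside 0.143% of all features in rpt2-3a and 0.875% in Col-0. In each genotype 1 of the 17 had an unadjusted p below 0.05. Over all features 8.74% had one in rpt2-3a and 9.41% in Col-0. PORB had the lowest change in rpt2-3a, with 2.27, 1.71 and 3.15 in deficient roots against 3.23, 3.56 and 2.91 at normal supply (-0.86 ± 0.38, limma adjusted p = 0.549), and the groups overlapped. GLYK had the lowest in Col-0, at -0.40 ± 0.12 (limma adjusted p = 0.209). In rosettes none of the 17 passed in any comparison, beside 0% to 2.01% of all features by comparison. PSB27, of photosystem II assembly, had the smallest p in rpt2-3a under deficiency, at 0.34 ± 0.10 (limma adjusted p = 0.148), beside PSAN at 0.28 ± 0.10.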

How the data were processed

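The authors deposited 1 value table of 28583 features on 24 arrays, with values from 0.93 to 12.77 that were read as log2. Transcriptome Analysis Console was the tool, per the submitters' processing notes. The log base, summarisation, normalization, tool version and build were not given in the sources used here, and every fold assumes base 2. No batch or scan date was used. Features were named through the platform annotation (16746 with 1 gene, 758 with several, 11079 with none), and 16601 of the first were matched to RefSeq's gene table.

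limma 3.58.1 in R 4.3.3 fitted 1 mean per group on the deposited log2 values, over the 12 arrays of an organ (8 residual degrees of freedom) or over all 24 (16) for roots against rosettes. A feature passed at a Benjamini-Hochberg adjusted p under 0.05 over all 28583 features. Correlations used 100000 resamples (scipy 1.17.1). The fit was checked on simulated data. The main fits did not pair arrays by replicate number. Same-numbered arrays deviated from group means with a median r of 0.01 within roots and -0.01 within rosettes. In either organ 0 of the 6 group pairs had all correlations above 0.1. Between roots and rosettes of rpt2-3a the same-numbered r was 0.09, 0.03 and 0.06 under deficiency and 0.03, 0.10 and 0.02 at normal supply. In Col-0 it was 0.11, 0.09 and -0.07 under deficiency and 0.10, 0.06 and 0.06 at normal supply. Arrays of unlike number averaged -0.03, -0.03, -0.02 and -0.04 in the same order. Whether roots and rosettes came from the same plants was not tested.

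The genes and lists were chosen with earlier results of these data known. Named were the 4 genes, every measured pathway gene, the measured markers, and the 3 features with 1 gene most like each gene in each organ. The plastid-encoded and rosette-high sets and 2 alternatives were added after values were seen. The number of arrays limits the precision.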

Additional observations from a re-analysis of the deposited data

How the results depend on the processing

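Of 1023 log2 changes recomputed under the alternatives, 0 crossed the threshold and 39 changed sign, none of them a called value; the lowest adjusted p of the 4 genes within an organ was 0.0577, for PSAE1 in the rosette response of rpt2-3a. Leaving out 1 array gave 23 of the sign changes. The ranges for PSAE1 were -0.86 to 0.28 (root response, rpt2-3a), -0.05 to 0.72 (Col-0), -0.56 to 0.21 (genotype, deficient), -0.12 to 1.02 (genotype, normal), -1.08 to 0.0567 (root minus rosette response, rpt2-3a) and -0.0267 to 0.74 (Col-0). For LHCB4.1 they were -0.17 to 0.25 (root response, Col-0), -0.095 to 0.19 (root genotype, normal), -0.0117 to 0.0883 (rosette difference of responses) and -0.0833 to 0.34 (root minus rosette response, Col-0). For ATPC1 they were -0.19 to 0.0683 (root response, Col-0), -0.0233 to 0.0617 (rosette response, Col-0) and -0.20 to 0.0517 (root minus rosette response, Col-0), and for RCA -0.0633 to 0.21 (root response, Col-0) and -0.045 to 0.04 (rosette genotype, deficient). Without both arrays of highest PSAE1, PSAE1 stood at 0.28 (root response, rpt2-3a), -0.05 (Col-0), 0.21 (genotype, deficient), -0.12 (genotype, normal), 0.33 (difference of responses), 0.0567 (root minus rosette response, rpt2-3a) and -0.0267 (Col-0). LHCB4.1 then stood at -0.17 (root response, Col-0), -0.095 (root genotype, normal) and -0.0833 (root minus rosette response, Col-0), and RCA at -0.0483 (root response, Col-0). Array weights gave LHCB4.1 -0.0528 (root genotype, normal). Quantile normalization gave LHCB4.1 -0.0024 (root response, Col-0) and -0.0611 (rosette difference of responses), and RCA -0.0658 (rosette difference of responses); centring within the organ gave LHCB4.1 -0.0067 in that comparison. These alternatives drop arrays or rescale them; the cause was otherwise not tested. The correlations that changed sign were PSAE1 with ATPC1 in roots (-0.0892 without the 2 farthest arrays) and, in rosettes, PSAE1 with LHCB4.1 (-0.12) and RCA with ATPC1 (-0.0705) without the 2 farthest, RCA with PSAE1 when centred (-0.0398), and LHCB4.1 with ATPC1 when centred (0.0147) or as deviations from group means (0.20). With the replicate number as a replicate block, 0 of the 4 genes passed within an organ and 4 of 4 between organs. In roots that fit called between 1 and 219 of the 28583 features in a comparison. Between organs 61.7% to 63.7% of all features passed in the main fits. The count over all features is less stable: 41 in the root response of rpt2-3a became 10 without replicate 2 of the deficient group and 154 with a robust trend. Without detection calls, signal over background limits the root values of ATPC1 and PSAE1.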

Other observations

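The plastid-encoded set was chosen after seeing the values and given no test as a set. Its medians by complex were as follows, and no difference between complexes was tested. In Col-0 at normal supply the differences of roots minus rosettes ran from -4.78 to -0.48 over the 63 genes. The 10 genes of the NDH complex had a median difference of -3.39, the 13 of photosystem II -2.92, the 6 of cytochrome b6f -2.26, the 13 of the plastid ribosome -2.07, the 4 of the RNA polymerase -2.11, the 4 of the ATP synthase -2.10, the 5 of photosystem I -1.997, the 1 of Rubisco -1.95 and the 7 others -1.94. In the root sulfur response of rpt2-3a the medians were -0.34 for the NDH complex, -0.33 for photosystem II, -0.34 for the RNA polymerase, -0.27 for photosystem I, -0.26 for cytochrome b6f, -0.21 for Rubisco, -0.19 for the ribosome, -0.18 for the ATP synthase and -0.14 for the others, and the 1 gene above 0 was among the others.

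Over the 12 rosette arrays the features most like PSAE1 were AT5G65220 (r 0.96), AT2G32580 (0.95) and AT3G06680 (0.95). For RCA they were AT1G15710 (0.95), AT4G24790 (0.94) and AT5G08570 (0.93), for LHCB4.1 AT1G48720 (0.91), AT5G59240 (0.88) and AT3G59480 (0.87), and for ATPC1 AT1G52300 (0.91), AT5G19030 (0.90) and AT4G18975 (0.88). These are descriptions over 12 arrays that share groups.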
